A study of Mus musculus with 6 samples.

Results

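The genes described here were those with the fewest RNA polymerase II (Pol II) reads in the promoter window for each read in the gene body. Reads of 6 libraries were summed per gene, genes with at least 60 promoter reads and at least 3000 gene body reads were kept, names of the form Gm followed by digits were dropped, and the remaining genes were ranked by the ratio of the sums. Of the 12107 genes measured, 7725 were eligible, and the 1000 with the lowest ratio, 12.9% of the eligible genes, were taken as members. The members were thus selected on the promoter and gene body sums and their ratio, and these are given below as a description without a test.

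ChIP-seq, which sequences DNA bound to an immunoprecipitated protein, was run with an antibody against the N-terminal part of RPB1 (POLR2A), the largest Pol II subunit. The cells, labelled neural stem cells and called neural progenitor cells (NPCs) below, came from ganglionic eminences taken at e13.5 and were grown with epidermal growth factor as neurospheres to the second passage. The 3 wild-type (WT) and 3 Armc5(-/-) (KO) libraries carry the numbers 1 to 3, used here as pairs, and both groups were grown and precipitated alike. ARMC5 is the substrate receptor of a ubiquitin ligase for POLR2A, the knockout is carried by the whole animal, and no source used here says how many fetuses entered a library, so p-values measure the spread between these pairs. The labels give the strain as 129 sv X CD1, and the study's methods name a cross of CD1 with C57BL/6, so the background is uncertain. The Armc5 gene itself was not analysed here. Reads fell into 3 windows per gene, which were the promoter from 400 bases before to 100 bases after the annotated start (TSS), the transcribed body of the gene, and a region from 100 bases before to 2000 bases after the transcription end site (TES).

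On an active gene, Pol II is loaded at the promoter, often pauses shortly after the start site, is released into elongation through the gene body, and dissociates beyond the TES. Paused Pol II makes the promoter the densest part of most active genes. A low ratio of promoter to gene body reads can go with little pausing, with a very long gene body, or with a start site that lies outside the counted window, and the ratio alone does not separate these. In neural cells, the longest genes encode synaptic adhesion molecules, receptors, ion channels and guidance factors.

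Depth and cell identity set the frame for all values. The libraries held 14528870 to 25199455 reads over the 3 windows, and the median member had only 14 to 40 promoter reads per library. The gene bodies of Sox2 and Nes, markers of neural precursors, held 7.88 to 38.4 and 38.8 to 73.4 CPM (reads scaled to a common library size, with TMM factors) in the 6 libraries. Of non-neural marker lists, 3 of 22 microglia and blood cell, 3 of 18 endothelial and mural and 4 of 15 mesenchymal genes were measured. None of these was a member. Of the neural lists, 43 of 49 progenitor, 35 of 39 neuronal, 11 of 14 astrocyte and 8 of 17 oligodendrocyte lineage genes were measured. In pair 3 promoters held 6.04% (WT) and 6.88% (KO) of all counts, against 10.9% to 12.2% in pairs 1 and 2.

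The members had between 0.0386 and 2.05 promoter reads per 100 gene body reads, with a median of 1.07, and the other eligible genes had a median of 12.9. Just inside the limit stood Araf, Agk and Cep112, at 2.05 each, and just outside stood Tymp, Gxylt2 and 4933434E20Rik, also at 2.05, so the limit does not mark a gap. The neighbours at the limit were unlike each other in size, from the 5.11 kb of Tymp to the 435 kb of Cep112. Ranked on WT libraries alone, 932 of the 1000 genes were chosen again, and on KO libraries alone 958. Ranked on a single pair, 803 genes came back in pair 1, 902 in pair 2 and 740 in pair 3, and 592 were chosen in every pair.

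The lowest ratio belonged to Chl1, which encodes a neural cell adhesion molecule of the L1 family. It was followed by Pcdh15 (0.0648 promoter reads per 100 gene body reads), a protocadherin of hair cells and photoreceptors, Ptprd (0.0734), a receptor tyrosine phosphatase of synapses, and Rbfox1 (0.101), a neuronal splicing regulator. Next came Cntn5 (0.102) and Cntnap5a (0.107), which encode a contactin and a contactin-associated protein, and Nfib (0.111), which encodes a nuclear factor I transcription factor of neural precursors and glia. Galntl6 (0.111), of a family of glycosyltransferases, and Lsamp (0.115), a limbic adhesion molecule, came next. Apart from Chl1 (240 kb) and Nfib (416 kb), these genes span from 903 to 2271 kb each.

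To show what lies at these starts, the 100 bases before the annotated start of the 6 members with the lowest ratios are given below in the GRCm38 build, 5′ to 3′ on the strand of the gene, in lower case with each CG dinucleotide in capitals.
Chl1, chr6:103510486-103510585, plus strand: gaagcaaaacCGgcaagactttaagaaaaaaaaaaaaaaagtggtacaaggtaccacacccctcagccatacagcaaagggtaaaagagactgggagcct
Pcdh15, chr10:73099242-73099341, plus strand: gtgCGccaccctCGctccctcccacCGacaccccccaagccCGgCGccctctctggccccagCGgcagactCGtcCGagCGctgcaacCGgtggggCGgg
Ptprd, chr4:78211962-78212061, minus strand: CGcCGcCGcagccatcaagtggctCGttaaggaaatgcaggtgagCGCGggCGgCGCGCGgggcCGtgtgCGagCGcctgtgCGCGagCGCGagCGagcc
Rbfox1, chr16:5885255-5885354, plus strand: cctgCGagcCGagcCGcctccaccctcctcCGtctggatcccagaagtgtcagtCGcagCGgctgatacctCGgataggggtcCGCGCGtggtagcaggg
Cntn5, chr9:10904776-10904875, minus strand: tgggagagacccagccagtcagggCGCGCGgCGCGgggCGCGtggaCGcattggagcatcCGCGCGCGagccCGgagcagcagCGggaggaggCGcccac
Cntnap5a, chr1:115684656-115684755, plus strand: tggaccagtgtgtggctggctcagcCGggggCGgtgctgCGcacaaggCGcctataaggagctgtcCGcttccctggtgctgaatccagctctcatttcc

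The stretches shown hold 18 CG for Ptprd, 15 for Cntn5, 11 for Pcdh15, 10 for Rbfox1, 5 for Cntnap5a and 1 for Chl1. Over the whole 500-base promoter window, the observed number of CG dinucleotides divided by the number that base composition predicts was 0.86 for Pcdh15, 0.85 for Ptprd and 0.81 for Rbfox1. It was 0.59 for Cntn5, 0.53 for Cntnap5a and 0.34 for Chl1. Promoters of widely expressed genes are usually CG-rich, and promoters of tissue-restricted genes often are not. Over all members the median of this CpG ratio was 0.59, against 0.78 for the other eligible genes, and 481 of 999 members (48.1%) had a window at or above 0.6, against 5430 of 6725 (80.7%).

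The rule divides counts, not reads per base, and gene length entered it strongly. The median member was 183 kb long and the median of the other eligible genes was 37.7 kb. Across 7724 eligible genes with an annotated extent, Spearman's rho between length and the count ratio was -0.66, a value across genes, which are not independent replicates, and length also scales the denominator. Of the longest 10% of eligible genes (182 kb or more), 504 of 773 (65.2%) were members, and of the shortest 10% 6 of 773 (0.776%). Of the members, 745 of 999 were at least 100 kb long and 28 were shorter than 20 kb.

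**Figure D1:**
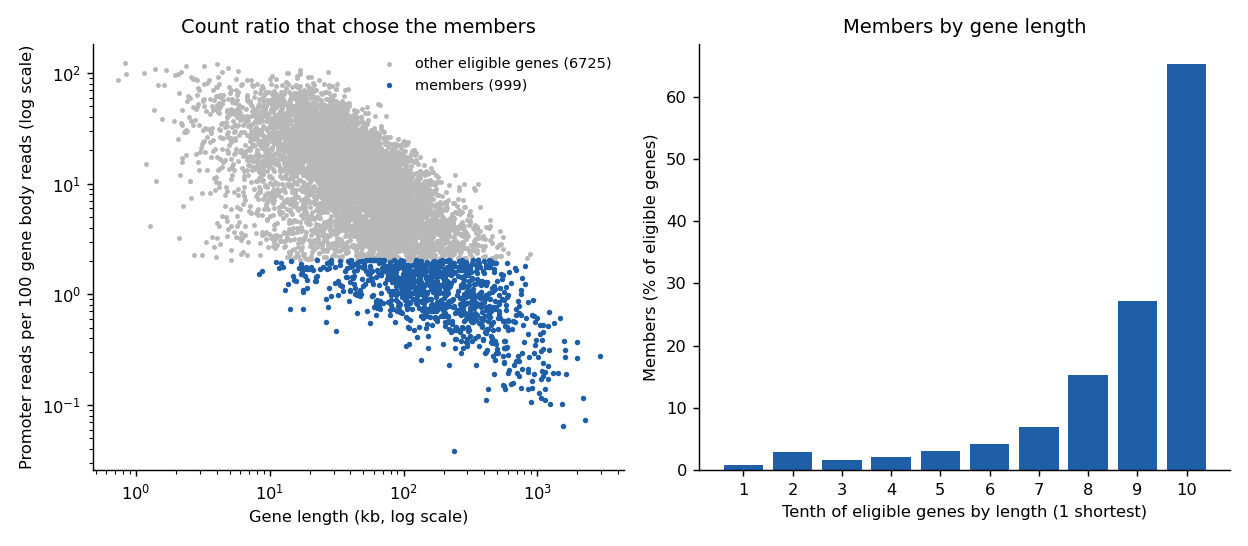
Left, promoter reads per 100 gene body reads (log scale) against gene length (kb, log scale) for members (blue) and other eligible genes (grey), each point being 1 gene. Right, the share of members in 10 equal groups of eligible genes ordered by length, which is 0.776% in the shortest group and 65.2% in the longest.

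Read per base, the promoter was still the denser part in most members. Promoter density was 337 reads per kb in the median member and gene body density 96.4 reads per kb (reads summed over the 6 libraries), and the median of their log2 ratio was 1.77. The other eligible genes had medians of 1886 and 166 reads per kb and a log2 ratio of 3.40. In 414 of 999 members the promoter had at least 4 times the density of the body, as in 5680 of 6725 other genes. Promoter density was below body density in only 76 members (7.61%) and in 148 other genes (2.20%). The 1000 eligible genes with the lowest ratio per base shared 391 genes with the members and had a median length of 23.4 kb. The name "least promoter signal per body" thus describes a ratio of counts, and in 923 of 999 members the promoter was at least as dense as the body. Much of this was set by the rule, because its minimum of promoter reads put every member at 120 promoter reads per kb or more. In the 572 members with a body density of at most 107.6 reads per kb, the promoter could only be the denser part.

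Gene body density split the members into a larger, weakly covered part and a smaller, well covered one. Among all measured genes of at least 100 kb, the lowest 10% had no more than 71.7 gene body reads per kb. This value served as a floor, since no input library was used here and the background was not measured. Within 1.5 times the floor (107.6 reads per kb) lay 572 of 999 members (57.3%), against 1116 of 6725 other eligible genes (16.6%). The minimum of gene body reads keeps short genes out of this range. The other eligible genes were shorter (median 37.7 kb, against 183 kb in members), so these shares do not compare like with like. Across 7724 eligible genes, Spearman's rho between length and body density was -0.73. The 572 near-floor members had median densities of 317 reads per kb at the promoter, 79.3 in the body and 91.0 in the TES region, and a median length of 242 kb. The 427 members above that limit had 360, 158 and 231 reads per kb and a median length of 118 kb. Fewer cells with Pol II on a gene, less Pol II per cell and background reads without Pol II cannot be told apart in these libraries.

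**Figure D2:**
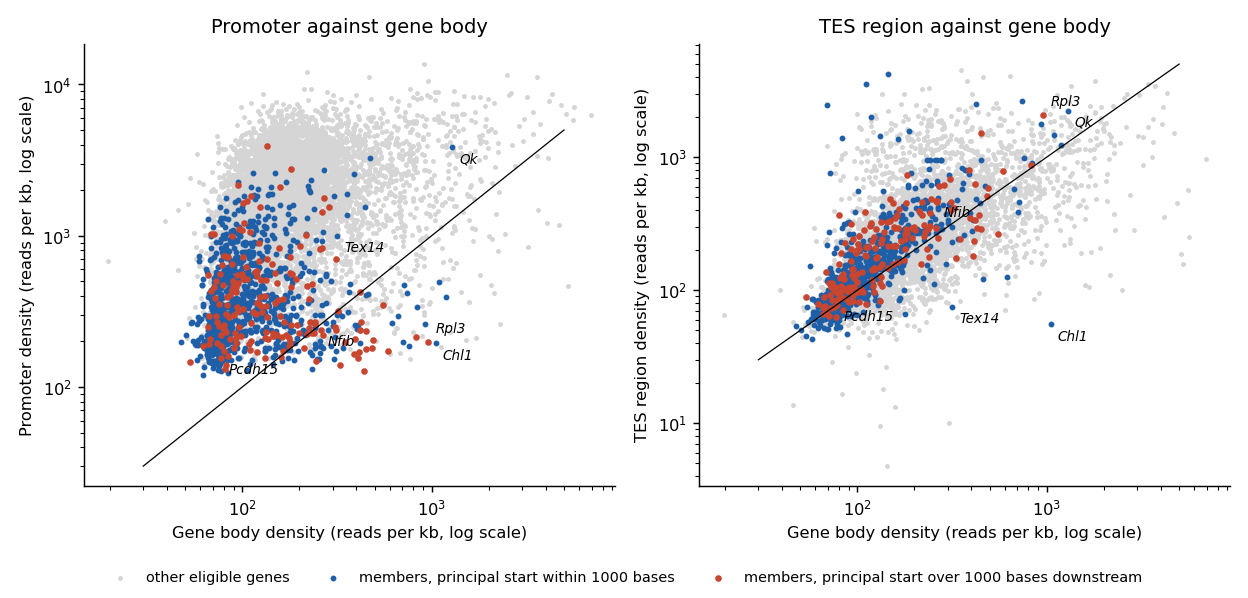
Promoter density (left) and TES region density (right) against gene body density (reads per kb summed over 6 libraries, log scales), where each point is 1 gene, the line marks equal density, and red members have a principal start over 1000 bases downstream. Most members lie above the line on the left near the lowest body densities, 76 lie below it, and on the right Chl1, at 1049 gene body and 55.2 TES reads per kb, lies farthest below it among the members.

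Gene lists held 229 of the members, and their near-floor counts are given where they were large or small. The lists were chosen with earlier results of these data known and are rich in long genes, so their shares are descriptive. Of the eligible common fragile site and megabase genes, 48 of 56 were members (85.7%, against 12.9% of all eligible genes), and 39 of the 48 were near the floor, among them Macrod2 (77.6 gene body reads per kb), Dlg2 (70.7), a postsynaptic scaffold protein, and Magi2 (92.1), a scaffold of cell junctions. Of the synaptic adhesion genes 29 of 41 were members (70.7%), with Lsamp and Ptprd holding the most gene body reads. Of the voltage-gated ion channels 17 of 25 were members, 16 of them near the floor, among them Cacna1c, the pore of an L-type calcium channel, at 97.1 gene body reads per kb and Cacna2d3, an accessory calcium channel subunit, at 76.2. The exception was Kcnd2, an A-type potassium channel, at 131.

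Of the glutamate and GABA receptor genes 15 of 26 were members, 13 near the floor, with the metabotropic receptor genes Grm7 at 69.1 and Grm5 at 155 gene body reads per kb and the kainate receptor gene Grik2 at 97.9. Of the axon guidance genes 20 of 35 were members, 14 near the floor, among them Sema6d, a transmembrane semaphorin (150 reads per kb), Dcc, the netrin receptor (95.0), and Dock1, an exchange factor for Rac (144). Of the cadherins and protocadherins 13 of 30 were members, 8 near the floor, with Ctnnd2, the neuronal delta-catenin, at 142 and Cdh13, a cadherin anchored in the membrane by a lipid, at 114. The cyclic nucleotide and lipid signalling list gave 17 of 32, 12 near the floor, with the phospholipase C gene Plcb1 at 80.0, the diacylglycerol kinase gene Dgki at 123 and the phosphatase gene Inpp4b at 78.0.

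The axonemal dynein and cilia genes gave 8 of 20 members, all 8 near the floor, including Cfap54 (72.0 gene body reads per kb), a protein of the ciliary central pair, Dnah9 (73.3), a dynein heavy chain, and Bbs9 (81.1), of the BBSome. The muscle and sarcomere list gave 6 of 11, 5 near the floor, with the sarcoglycan genes Sgcz (62.9) and Sgcd (66.1) and the ryanodine receptor gene Ryr3 (83.3). Of the extracellular matrix genes 14 of 28 were members, 13 near the floor, such as Hmcn1, a matrix protein, at 73.7 and Reln, the layering signal reelin, at 72.6, while Tnr, the neural matrix protein tenascin-R, stood at 129. Neuronal markers gave 12 of 21, with Map2, the dendritic microtubule protein, at 271, Ncam1 at 170 and Ank2, an ankyrin, at 166, and 8 of the 12 were near the floor.

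Neural progenitor genes were covered above the median member. Of the neural progenitor markers 17 of 39 were members (43.6%), and only 2 of these were near the floor. Their median was 266 gene body reads per kb, against 96.4 over all members. Npas3, a transcription factor of neural development, had 269 reads per kb over 823 kb, and Sox6, a SoxD factor, had 224 over 568 kb. The fibroblast growth factor receptor gene Fgfr2 was counted over 2961 kb, and in the GENCODE annotation that span holds 30 other protein-coding genes, so its reads cannot be assigned to Fgfr2 alone.

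Among RNA-binding and splicing factors 6 of 27 were members, 4 of them near the floor and with a median of 94.2 gene body reads per kb, with Rbfox1 at 67.3, Msi2, of the Musashi family, at 222 and Qk at 1288. Of the chromatin regulators 5 of 35 were members, none near the floor, with the histone methyltransferase gene Kmt2c at 176, the BAF subunit gene Arid1b at 170 and the deacetylase gene Hdac4 at 146. Of the neural tube closure genes 6 of 32 were members, with Prickle2, of planar cell polarity, at 84.9, the actin nucleator gene Cobl at 78.5 and Mthfd1l, of mitochondrial folate metabolism, at 130. Of the astrocyte markers only the glutamate transporter gene Slc1a2 (133) and of the oligodendrocyte lineage markers only the myelin gene Mbp (98.3) were members. None of the 4 eligible Pol II subunit genes was a member, and of 42 eligible ribosomal protein genes only Rpl3 was. Of the reference genes Ywhaz, a 14-3-3 protein, was the single member of 12 eligible, at 590 gene body reads per kb.

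The highest gene body densities belonged mostly to short genes. In reads per kb they were Qk (1288), an RNA-binding protein of glia, Hnrnpl (1188) and Hnrnpk (1088), which bind nuclear RNA, Chl1 (1049), Rpl3 (961), a ribosomal protein, Mllt11 (927), Kdm6b (838), a demethylase of histone H3 lysine 27, and Cdk2ap1 (828), which binds cyclin-dependent kinase 2. Apart from Qk (117 kb) and Chl1 (240 kb), they were 12.2 to 17.7 kb long. In the annotation Rpl3 overlaps Syngr1 and 4 small RNA genes, Hnrnpk overlaps Rmi1, and Mllt11 overlaps Cdc42se1. The reads of these 3 genes cannot be assigned to them alone. In the 7 genes other than Qk the promoter window was less dense than the body, from 194 reads per kb in Chl1 to 498 in Hnrnpk. Qk had 3870 promoter reads per kb and was a member only through its body reads.

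The place of the promoter window was taken from the outermost GENCODE start, which the deposited counts do not state. In the GENCODE vM21 annotation, the principal transcript (the isoform ranked first by APPRIS) started more than 1000 bases downstream of the outermost annotated start in 175 of 999 members (17.5%) and in 404 of 6723 other eligible genes (6.01%). It started more than 10000 bases downstream in 125 members and 213 others. Of the 76 members with a promoter below the body, 27 (35.5%) had such a distant principal start, and in 51 (67.1%) the window held the start of a single transcript out of 3 or more. Of the 923 other members these were 148 (16.0%) and 393 (42.6%). None of the 76 was near the floor, but the rule left no other outcome. Every member had at least 120 promoter reads per kb, so a body denser than its promoter lay above the near-floor limit of 107.6. The median body density of the 76 was 328 reads per kb.

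The deposited counts do not name the annotation behind the windows. For 256 genes whose RefSeq extent is over 1.5 times the GENCODE extent, body density computed on the RefSeq extent fell under the floor in 96 genes (37.5%), and on the GENCODE extent in 7 (2.73%). For 391 genes with the reverse, the GENCODE extent put 14 under the floor (3.58%) and the RefSeq extent 1 (0.256%). GENCODE extents, with fewer such genes over both sets, were used for all lengths and densities, and a window placed elsewhere by the authors would change the values of single genes.

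Nfib and Rpl3 show both starts side by side. They were picked for this after their values had been seen. The 100 bases before the outermost start and before the principal start follow, with CG in capitals as above (GRCm38).
Nfib outermost, chr4:82705751-82705850, minus strand: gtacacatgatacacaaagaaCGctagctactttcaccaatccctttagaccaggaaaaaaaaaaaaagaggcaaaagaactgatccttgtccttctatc
Nfib principal, chr4:82505309-82505408, minus strand: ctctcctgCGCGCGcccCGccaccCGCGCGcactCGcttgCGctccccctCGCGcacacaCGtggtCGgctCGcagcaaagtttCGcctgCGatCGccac
Rpl3 outermost, chr15:80091869-80091968, minus strand: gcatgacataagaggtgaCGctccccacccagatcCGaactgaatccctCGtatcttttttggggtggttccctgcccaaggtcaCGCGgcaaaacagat
Rpl3 principal, chr15:80083407-80083506, minus strand: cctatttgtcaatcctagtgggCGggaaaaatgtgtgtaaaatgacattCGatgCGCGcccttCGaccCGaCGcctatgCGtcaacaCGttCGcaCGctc

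The outermost Nfib start lies 200442 bases upstream of the principal start, and that of Rpl3 lies 8462 bases upstream. Over the 500-base windows the CpG ratio was 0.24 at the outermost and 0.91 at the principal start of Nfib, and 0.44 and 1.03 for Rpl3. The deposited counts do not say on which start their promoter window lies. That window held 17, 25 and 15 Nfib reads in WT NPCs and 27, 27 and 9 in KO NPCs, beside 10815 to 27431 gene body reads. For Rpl3 it held 14, 15 and 7 reads in WT and 23, 27 and 13 in KO, beside 881 to 4012 gene body reads. Over the 76 members with a promoter below the body, the median CpG ratio was 0.26 at the outermost window and 0.61 at the principal start.

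Downstream of the genes, Pol II density was most often above that of the body. TES region density was above gene body density in 772 of 999 members (77.3%) and in 4753 of 6725 other eligible genes (70.7%), and the median log2 ratio was 0.25 against 0.30. Another protein-coding gene starts in the TES window of 30 members, and there the median TES density was 394 reads per kb, against 111 in the 837 members with no other coding gene in the window. The highest TES to body ratios were those of Col23a1 (2450 reads per kb in the TES region and 69.3 in the body), Prss12 (3517 and 111), Tex2 (4231 and 145), Epb41l4a (2012 and 117) and Cpeb1 (1382 and 83.3). The start of Phykpl lies in the TES window of Col23a1.

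At the other end stood Chl1 (55.2 reads per kb in the TES region and 1049 in the body), Tex14 (74.8 and 317), Oxsm (126 and 614), Parp16 (121 and 461) and Knstrn (66.2 and 179). Of the 136 members with over 200 gene body reads per kb, only Chl1 and Tex14 had under 100 in the TES region. The annotation places other transcripts inside several of these genes. Oxsm overlaps the deglycosylase gene Ngly1, Parp16 holds the U5 spliceosomal RNA gene Rnu5g, Tex14 holds 11 annotated small RNA entries, some under the same symbol, among them Rnu1a1 of U1 RNA and the Rnu3b genes of U3 RNA, and Chl1 holds the small RNA gene Gm24784. The windows do not separate their reads.

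Chl1 (chromosome 6, 103510586 to 103750211) held 27417, 44302 and 52240 gene body reads in the WT libraries and 38983, 35971 and 52226 in the KO libraries. Its promoter window held only 14, 27 and 5 reads in WT and 15, 29 and 7 in KO, and its TES region 12 to 24 reads in each library. In TMM-scaled CPM the gene body stood at 1339, 1753 and 4244 in WT and at 1403, 1725 and 3697 in KO, so pair 3 was high in both genotypes and the genotypes overlapped. Gm10800, which is no member and was picked after its values were seen, had the same order of pairs at a higher level, with gene body values of 10498, 16574 and 40330 CPM in WT and 11153, 13056 and 32767 in KO.

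Coverage of the near-floor members moved with the replicate pair. The median autosomal near-floor member had 0.421, 0.674 and 1.09 gene body CPM per kb in WT NPCs and 0.397, 0.698 and 1.02 in KO NPCs. Pair 3, in which promoters held the smallest share of counts, was thus the highest, pair 1 was the lowest, and WT and KO overlapped. The members above the floor had 1.29, 1.24 and 1.54 in WT and 1.26, 1.23 and 1.47 in KO. Near-floor members took 11.98%, 17.2% and 20.9% of all gene body counts in WT and 11.6%, 17.9% and 20.3% in KO. The part of the immunoprecipitation in this pattern was not tested.

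Single genes differed in which pair was highest. Cntn5, near the floor, had gene body levels of 442, 753 and 1348 CPM in WT and 421, 838 and 1240 in KO, with pair 3 the highest. Rpl3, well covered, had 138, 92.0 and 71.6 in WT and 144, 95.3 and 91.9 in KO, with pair 1 the highest. Qk had 2177, 697 and 814 in WT and 1954, 639 and 770 in KO. In each of these genes WT and KO overlapped and the pairs differed more than the genotypes.

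**Figure D3:**
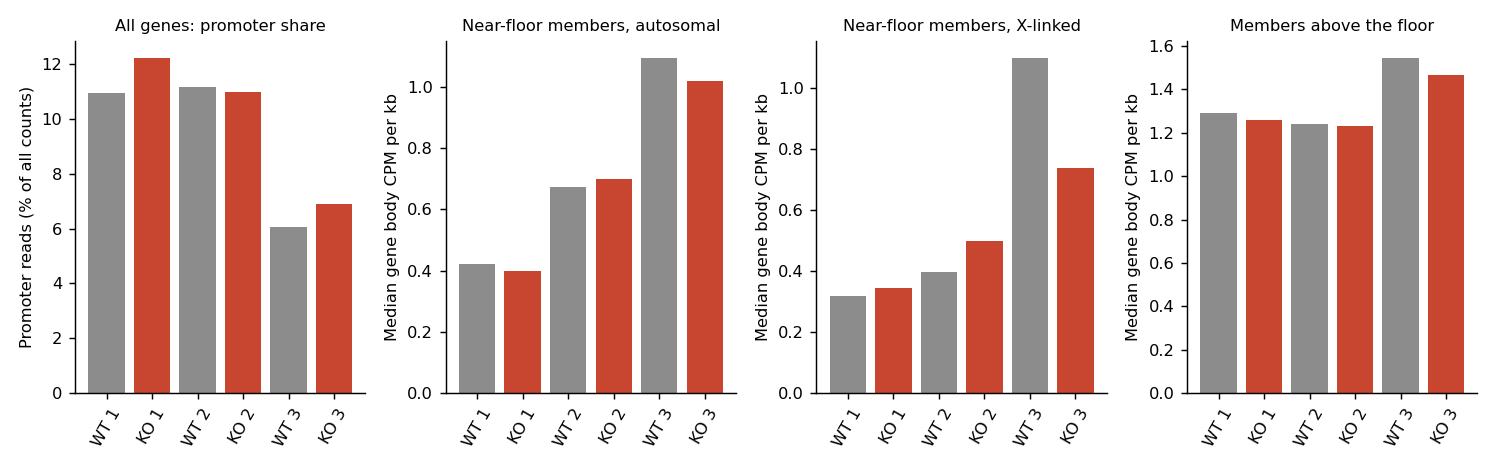
Bars give, for each library (grey, WT; red, KO), the promoter share of all counts (%) and the median gene body CPM per kb of 548 autosomal and 24 X-linked near-floor members and of 427 members above the floor. Near-floor levels are highest in pair 3, and the X-linked level in WT replicate 3 stands level with the autosomal one.

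The lowest gene body densities of all members were on the X chromosome. Among the lowest were Eda (47.6 reads per kb), a ligand of the tumour necrosis factor family for skin appendages, Gpc3 (50.6), a glypican, Tceal3 (53.2) and Col4a5 (53.6), a basement membrane collagen. The 28 X-linked members had a median of 61.9 reads per kb, against 97.9 in the 971 autosomal members. Among near-floor members, the X-linked median divided by the autosomal one was 0.755, 0.591 and 1.00 in WT NPCs and 0.867, 0.715 and 0.723 in KO NPCs. WT replicate 3 thus stood apart, and its Y-linked gene bodies summed to 0.731 CPM, against 106 to 186 in the other 5 libraries.

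That library entered the KO against WT values of the X-linked members. Eda had 76.5, 124 and 443 CPM in WT and 100, 160 and 281 in KO, so KO was higher in pairs 1 and 2 and lower in pair 3. Gpc3 had 67.1, 114 and 369 in WT and 81.8, 142 and 231 in KO, with the same order. Over the 28 genes the median KO minus WT log2 difference was 0.11 and 0.32 in pairs 1 and 2 but -0.56 in pair 3, and none was called.

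**Figure D4:**
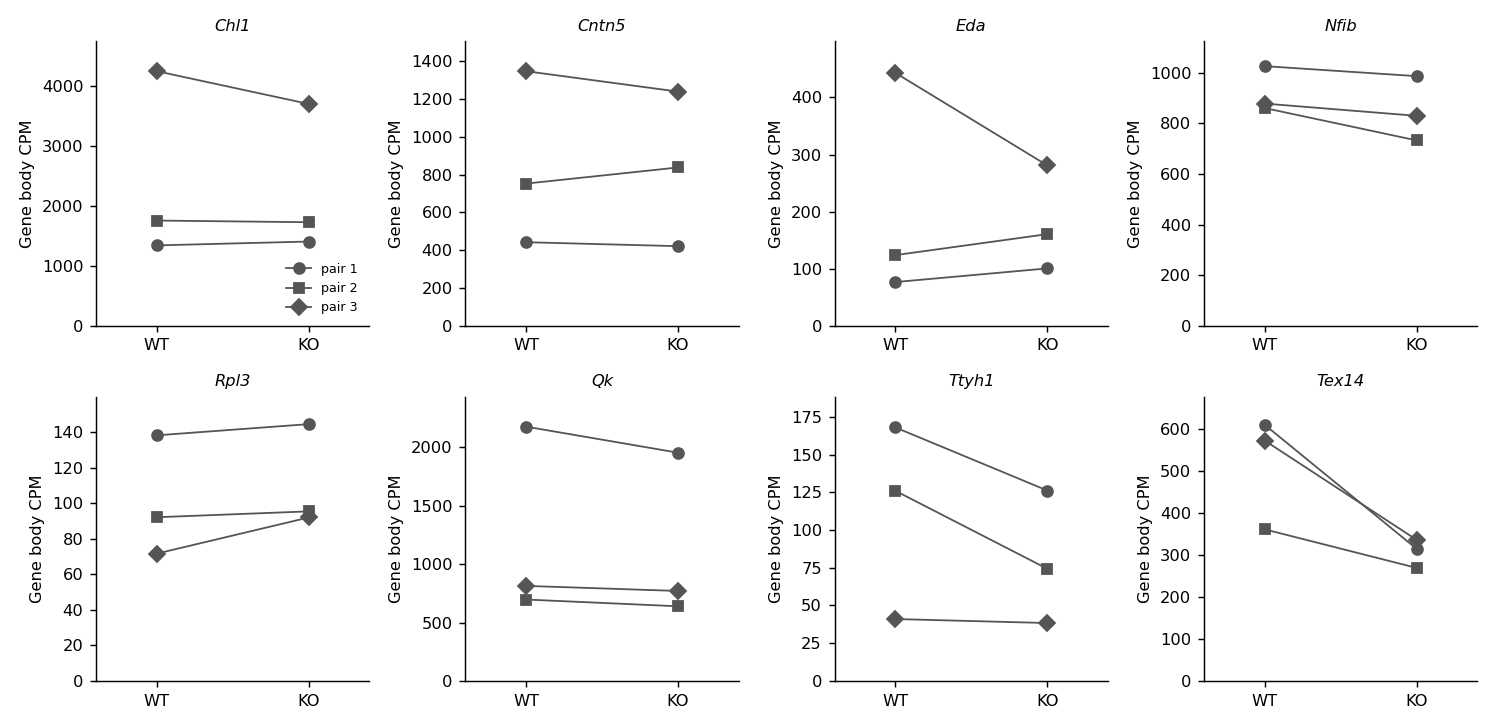
Gene body level (TMM-scaled CPM, axis from 0) of 8 members in WT and KO NPCs, with a line joining the libraries of 1 replicate pair. Chl1, Cntn5 and Eda are highest in pair 3, Qk, Rpl3 and Ttyh1 in pair 1, and Tex14 is lower in KO in all 3 pairs.

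The genotype comparison asked whether loss of ARMC5 changed Pol II on these genes. The sums that chose the members pooled both genotypes, so the contrast was tested. Genes lacking signal in KO had, however, been dropped before deposit, a filter on 1 genotype that can favour higher KO values. Its effect was not tested. The fit ran across all 36321 windows with limma-voom and the pair as a block, two-sided. A call needed a Benjamini-Hochberg adjusted p under 0.1. In gene bodies 2 of 1000 members were called, both lower in KO, and 25 of all 12107 genes (0.206%) were called. At promoters no member was called, beside 21 of all genes (0.173%), and in TES regions none, beside 3 of all genes (0.0248%). The edgeR quasi-likelihood and DESeq2 tests likewise called no member promoter or TES region. The number of gene bodies called depended on which libraries were left out. It was 26 without KO replicate 2, 19 without WT or KO replicate 3 and 8 without WT replicate 2. Leaving out WT or KO replicate 1 gave 5. Without pairs 3, 2 and 1 it was 20, 1 and 6. For these fits, here and below, calls over all genes are not given, so the counts have no background beside them. With the pair as a block, a library without its partner carries no KO against WT difference.

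Tex14 (chromosome 11, 87405065 to 87555823), known for the intercellular bridges of germ cells, had gene body levels of 610, 361 and 572 CPM in WT and 314, 269 and 336 in KO. Every WT library was above every KO library. KO differed from WT by -0.73 ± 0.08 on the log2 scale (SE, limma adjusted p = 0.00486), and its promoter, at 1.77 to 5.43 CPM, and its TES region were not called. Only 1 of 10 other tools, scalings, values or filters, the fit without the pair, lost the call. As given above, the reads include those of U1 and U3 RNA genes.

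Ttyh1 (chromosome 7, from 4119408), of the tweety family of membrane proteins, had 168, 126 and 41.0 CPM in WT and 126, 74.3 and 38.4 in KO. The groups overlapped, but KO was lower than WT within each pair, by log2 differences of -0.41, -0.76 and -0.10. On the log2 scale the difference was -0.49 ± 0.09 (SE, limma adjusted p = 0.0874). It was called in 4 of 10 other tools, scalings, values and filters. Without WT replicate 2, KO replicate 2 or both it was not called, with a limma adjusted p of up to 0.446.

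The other members with the smallest p in gene bodies were also lower in KO without passing. Sox6 had 1132 ± 339 CPM in WT and 982 ± 243 in KO (mean ± SD, n = 3, log2 fold change -0.20 ± 0.04, limma adjusted p = 0.131). Grk3, a receptor kinase, had 181 ± 11.3 and 151 ± 22.2 CPM (log2 fold change -0.26, limma adjusted p = 0.201). Zmiz1, a transcriptional coregulator, had 645 ± 292 and 547 ± 190 CPM (log2 fold change -0.23, limma adjusted p = 0.22). In these 3 genes KO was lower in every pair.

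Over the whole set, gene body differences were small and mostly below 0. The median log2 fold change of the members was -0.04, against -0.01 over all genes, and 271 of 1000 members (27.1%) were above 0, against 45.3% of all genes. By pair the member median was -0.07, 0.03 and -0.09, so pair 2 went the other way, and over all genes it was -0.02, 0.02 and -0.04. Without pair 1, 2 or 3 the member median was -0.0164, -0.0734 and -0.00169, and it was -0.0159 with library totals and -0.0132 with scaling on sparsely covered bodies. At an unadjusted p under 0.05, 12 members were higher in KO and 87 lower (1.20% and 8.70%), where the background was 4.82% of all genes higher and 3.59% lower. Of the 87, 56 were among the 427 members above the floor. Of the neural progenitor markers, 1 of 23 lists, 17 members were tested, of which 1 was higher and 8 lower at that threshold. The median of these 17 was -0.07, and it does not describe the markers that were not members. Nes and Sox2, which are not members, had gene body log2 fold changes of 0.19 and -0.05 (limma adjusted p = 0.551 and 0.935).

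At promoters the members leaned the other way. Their median log2 fold change was 0.19, against 0.03 over all genes, and 710 of 1000 (71%) were above 0, against 54.8% of all genes. In 20 members the WT reads alone, scaled to 6 libraries, would miss the promoter minimum, and in 0 the KO reads would. The median of the other 980, a split chosen after seeing the data, was 0.18. The median was above 0 in each pair, at 0.22, 0.19 and 0.13, against 0.09, 0.01 and -0.08 over all genes. At an unadjusted p under 0.05, 94 members were higher in KO and 4 lower, where the background was 7.55% higher and 2.4% lower. Near-floor members and those above the floor had the same median, 0.19 and 0.18. The 1000 eligible genes with the lowest ratio per base, of which 391 are members, had a median of 0.20. The lean was thus not particular to the ranking by counts. The counts are low, with a median SE of 0.29 in members and 0.17 over all genes. Leaving out a library or pair gave 0 to 24 called promoters, with no count over all genes beside them. There were 24 without WT replicate 1, 24 without KO replicate 1 and 14 without both. Leaving out WT replicate 3, KO replicate 3 or both gave 5, 5 and 4.

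Dnah9 had the smallest promoter p, with 12, 31 and 9 reads in WT and 101, 60 and 20 in KO. In CPM every KO library (1.42 to 3.63) was above every WT library (0.586 to 1.23), while in raw reads KO replicate 3 was below WT replicate 2. The log2 difference was 1.65 ± 0.33 (SE, limma adjusted p = 0.122), while the gene body stood at 225 ± 119 CPM in WT and 227 ± 105 in KO. Next came Syne2, a nesprin of the nuclear envelope (1.74 ± 1.13 to 3.47 ± 1.77 CPM, limma adjusted p = 0.213), Eif4g3, a translation initiation factor (1.24 ± 0.638 to 2.48 ± 1.34, limma adjusted p = 0.275), Gtdc1, a glycosyltransferase-like protein (1.79 ± 0.158 to 3.18 ± 0.928, limma adjusted p = 0.296), and Fbxw7, a ubiquitin ligase subunit (1.58 ± 0.763 to 2.87 ± 1.11, limma adjusted p = 0.306). Each was higher in KO in every pair without passing the threshold.

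TES regions of members did not stand out from the background. The median log2 fold change was -0.09 in members and -0.08 over all genes. At an unadjusted p under 0.05, 7 members were higher and 55 lower, where the background was 1.4% higher and 4.84% lower. Tcf12, a helix-loop-helix factor, had 20.1, 9.38 and 10.3 CPM in WT and 13.1, 6.38 and 7.43 in KO (log2 fold change -0.57 ± 0.13, SE, limma adjusted p = 0.166). Tmbim1, Wscd1, Myo10 and Slco3a1 followed, lower in KO in every pair, with limma adjusted p from 0.303 to 0.426. Leaving out WT or KO replicate 3 gave 3 called member TES regions, leaving out both gave 2 and leaving out KO replicate 2 gave 1.

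**Figure D5:**
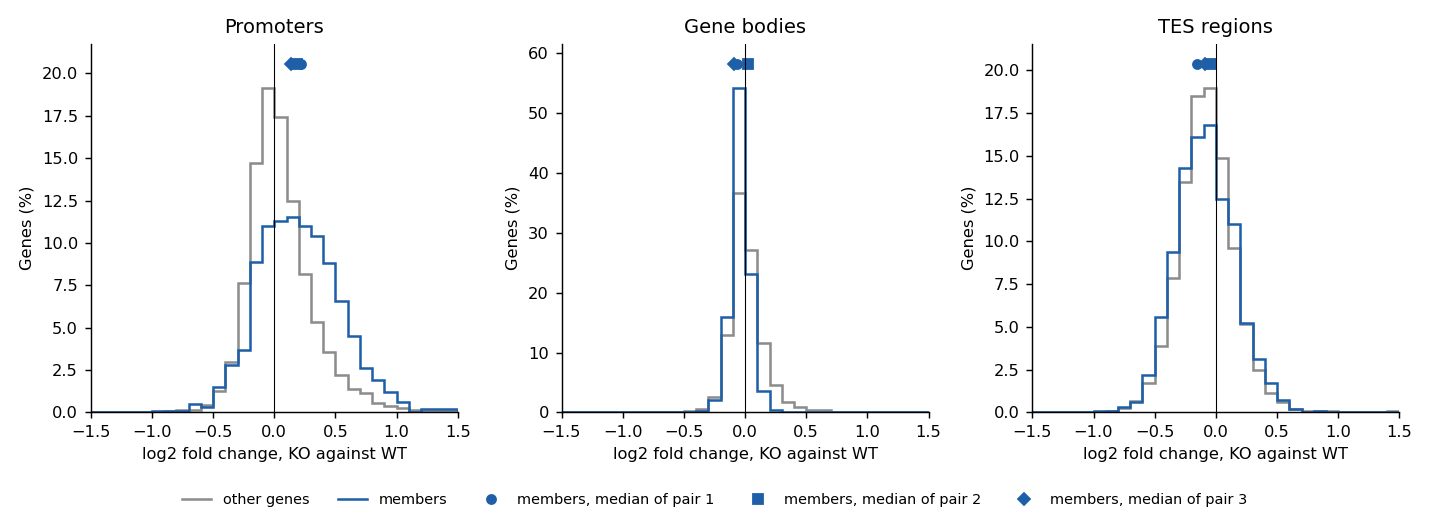
Distribution of log2 fold changes, KO against WT, for members (blue) and all other genes (grey) in promoters, gene bodies and TES regions, as a percentage of genes in bins of 0.1, with values beyond 1.5 placed in the outermost bins. Symbols mark the member median of each replicate pair, which is above 0 in all 3 pairs at promoters and between -0.09 and 0.03 in gene bodies.

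The ratios were also tested within genes, as the log2 of promoter or TES counts over gene body counts, centred on each library's median. For promoter to body, none of 12096 genes was called (0%) and so no member, but 30 members were called without pair 1 and 1 without pair 2. At an unadjusted p under 0.05, 74 members had a higher ratio in KO and 6 a lower one, where the background was 5.33% and 6.37%. The member median was 0.16, with 0.15, 0.10 and 0.24 in the 3 pairs, against -0.04 over all genes. The smallest p among members were those of Akt1, a kinase of growth signalling (1.03 ± 0.24, SE, limma adjusted p = 0.335), and Dnah9 (1.48 ± 0.35, limma adjusted p = 0.335). Ankrd24, Prr14 and Cdc20b followed, each with a limma adjusted p of 0.342. Ankrd24 and Cdc20b reached the minimum of promoter reads only through the KO libraries, so the choice of members favoured their higher KO values.

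For TES to body, 1 of 12076 genes was called (0.00828%), which was no member. At an unadjusted p under 0.05, 23 members were higher in KO and 10 lower, where the background was 2.99% and 3.18%. The member median was 0.03, against -0.00337 over all genes. Rgs22, Npl, Mkx and Unc5d were among the smallest p, higher in KO in every pair, with limma adjusted p from 0.73 to 0.735.

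Summed per library, members took 26.5%, 29.5% and 33.1% of all gene body counts in WT and 25.9%, 29.9% and 32.5% in KO, with pair 3 the highest in both genotypes. The KO minus WT difference was -0.263 percentage points (two-sided exact permutation p = 0.8, n = 3 each, where 0.1 is the smallest p possible). Their share of promoter counts was 2.05% ± 0.161 in WT and 2.14% ± 0.247 in KO (SD, exact permutation p = 0.7), and their share of TES counts 5.49% ± 0.197 and 5.43% ± 0.254 (exact permutation p = 0.7). The median log2 promoter to body density of the members was 1.70, 2.03 and 0.87 in WT and 2.06, 2.23 and 1.17 in KO. It was higher in KO within each pair, by 0.29 on average, and the groups overlapped (exact permutation p = 0.5). Sign flips within the pairs gave an exact permutation p of 0.25, the smallest possible with 3 pairs. Without WT replicate 3 the unpaired difference of group means was -0.05. Without that library the gene body share differed by 1.45 percentage points, against 1.51 without KO replicate 1. Dropping a library leaves its partner in the other group, so these differences mix pair with genotype. Over the 7 library measures tested without pairing, the smallest adjusted p was 0.933.

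Genes of the same lists that were not members add 3 calls. Of 583 listed genes measured, 229 of them members, the gene bodies of Pcdh8, a protocadherin (log2 fold change 1.18 ± 0.18, SE, limma adjusted p = 0.052), Nefm, a neurofilament subunit (0.63 ± 0.10, limma adjusted p = 0.052), and Srsf7, a splicing factor (0.52 ± 0.08, limma adjusted p = 0.064), rose in KO. No other window of a listed gene was called, member or not. Over all genes, 25 of 12107 gene bodies were called (0.206%). The lists were chosen with earlier results of these data known, and the study names Pcdh8 among genes with raised Pol II density in KO.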

How the data were processed

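Pol II ChIP-seq of 3 WT and 3 KO libraries was analysed. The submitters' processing notes name Trimmomatic, BWA, Picard, MACS2 and the GRCm38 (mm10) build. The authors counted reads with HOMER in promoter (500 bases), gene body and TES (2100 bases) windows, and the raw counts were deposited after genes lacking signal in KO were dropped. The deposited log2 CPM values were made by the authors with TMM scaling and voom and served as an alternative. The annotation behind the windows, an input library and tool versions other than bcl2fastq 2.20 are not given in the sources used here.

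Members and lists were chosen with earlier results of these data known. Densities used GENCODE vM21 extents (12099 of 12107 symbols matched, 12060 by their own symbol, and 999 of 1000 members, all protein-coding). Sequences came from the RefSeq GRCm38 genome. All 36321 windows were fitted together with limma 3.58.1 (voom, TMM from edgeR 4.0.16, R 4.3.3) with the replicate number as a block, and Benjamini-Hochberg adjustment ran over all windows. The numbers are those of the labels, and libraries sharing a number departed from their group means alike (correlations of 0.606 to 0.889 over the 3 kinds of window), so they were taken as pairs. Ratios were log2 of counts plus 0.5, centred on the library median, where both windows averaged 10 or more reads per library, and were tested with limma's trend. Library measures had two-sided exact permutation tests, with sign flips within pairs as an alternative. The code was tested on simulated data.

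Named genes were the 10 lowest ratios, 3 on each side of the limit, the 8 highest and 5 lowest body densities, the 5 highest and lowest TES to body densities, called members and, below 5 calls, the 5 smallest p, and up to 3 members per list by body counts. A few genes that this rule names are not reported here. Alternatives were edgeR and DESeq2 1.42.0, other scalings, thresholds and filters, the fit without the block, and left-out libraries. Intervals for counting error were not used, and depth enters through the counts.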

Additional observations from a re-analysis of the deposited data

How the results depend on the processing

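Ranking by reads per base shared 391 of the 1000 members. With that ranking 3 promoters were called, beside 21 of all 12107 genes (0.173%) in the same fit. The KO minus WT difference of the gene body share was then 0.0624 percentage points instead of -0.263. Called gene bodies numbered 1 with edgeR, with TMM within each kind of window, with library totals, with scaling on sparsely covered gene bodies, with the deposited log2 CPM and at an adjusted p under 0.05. Without the replicate block, 0 gene bodies were called and the median promoter difference was 0.12 instead of 0.19. Without X- and Y-linked genes 1 promoter was called. TMM within each kind of window put the median TES difference at -0.0213 instead of -0.09, and a trend on the numerator's counts called 6 promoter to body ratios. Apart from the ranking by reads per base, calls over all genes in these alternatives are not given. Their counts have no background beside them.

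Leaving out single libraries or pairs gave 0 to 24 called promoters, 1 to 26 gene bodies, 0 to 3 TES regions and 0 to 30 promoter to body ratios. With a single library left out, the unpaired difference in gene body share ranged from -1.88 to 1.51 percentage points. That of the median log2 promoter to body density ranged from -0.0463 to 0.61. Both ranges mix pair with genotype. The fits with libraries left out keep 1 residual degree of freedom per window, so their counts lean on the spread shared between windows. Calls over all genes in these fits are not given here, so the counts have no background beside them. The causes were not tested. Promoter counts of members, 14 to 40 reads in the median, limit what could be detected there.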
